A study of Mus musculus with 2 samples.

Results

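The data concern 9 protein-coding mouse genes that act downstream of the Fanconi anemia core complex or in homologous recombination: Fancd2, Fanci, Brca1, Brca2, Palb2, Brip1, Rad51c, Slx4 and Ercc4. They are 9 of the 21887 protein-coding genes on chromosomes 1 to 19, X and Y in the RefSeq annotation of GRCm38, the assembly also known as mm10. The genes were chosen by their roles, and for each one every accessible region (peak) overlapping the gene record or the 50 kb on either side was taken from 2 deposited peak lists. Open chromatin had been mapped by ATAC-seq, which reads where the Tn5 transposase can enter the genome, in hematopoietic stem cells (HSCs) sorted as CD48-CD150+LSK from the bone marrow of wild-type C57BL/6J mice. LSK is the usual name of the lineage-negative, Sca-1-positive, c-Kit-positive gate. The H1C group carried MSCV-H1C, a retrovirus that expresses the linker histone H1C, and the control group carried the pMSCV retrovirus, so both groups had been transduced and neither had a Fanconi mutation. Each group was 1 library of about 1000 cells, so differences have no replicate check and no p-value is given. The series comes from work on Fanconi anemia, and the comparison asks how added H1C changes chromatin accessibility in these cells. The sources used here give neither the number nor the age of the mice, and the peak lists do not measure how much H1C was made.

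The Fanconi pathway repairs crosslinks that tie the strands of DNA together and block replication forks. The core complex attaches ubiquitin to the paired proteins FANCD2 and FANCI, which stay at the lesion and bring in nucleases held by the scaffold SLX4, among them ERCC4 (XPF), which cuts the crosslink out of one strand. The break that is left is repaired by recombination, in which BRCA1, PALB2 and BRCA2 act with RAD51C and the helicase BRIP1. Inherited loss of both copies of any of these genes causes Fanconi anemia or a related disorder, and HSCs are among the cells most affected.

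The H1C list held 13012 peaks and the control list 31843 on the chromosomes used. Read totals are not in the lists. The genome-wide background, the lowest local background in each list, scales with depth and was 4.40 in H1C and 3.99 in control, a ratio of 1.10. All pileup ratios below, H1C over control, were divided by it. The summit pileup is the number of reads or fragments stacked at the highest point of a peak, and it was solved from the deposited fold and −log10 p. As a check of the cell label, a gene-end peak, one within 1000 bp of either end of a gene, was present at 1 of 11 stem cell marker genes in H1C (Mllt3) and at 6 of 11 in control (Kit, Slamf1, Hlf, Meis1, Ly6a and Mllt3). Such a peak was present for lymphoid markers at 1 of 6 genes in H1C and 5 of 6 in control, myeloid markers at 1 of 6 in H1C and 3 of 6 in control, erythroid and megakaryocyte markers at 0 of 5 in H1C and 1 of 5 in control, mast cell markers at 0 of 3 in H1C and 1 of 3 in control, and endothelial and stromal markers and non-hematopoietic markers each at 0 of 3 in H1C and 2 of 3 in control. Among all protein-coding genes such a peak was present at 33.6% in H1C and 46.9% in control. The marker counts therefore do not single out stem cells in either list. The part of other cells in the results was not tested.

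The DNA just before 4 of the start sites is shown because each lies in the control gene-end peak of its gene, and because Fanci lost that peak in the H1C list while Brca1, Palb2 and Brip1 kept it. The start sites of Brca2 and Ercc4 and that of Rad51c at 87404506 also lie in such peaks. They are not shown because all of the 250 bases before them lie inside a gene record. The RefSeq promoter table (GRCm38.p6) held 9 start sites for 8 of the genes, with no entry for Fancd2. Each gene record begins within 50 bases of the start site, and each sequence is the part of the 250 bases before the start site that lies outside every protein-coding gene record, read 5′ to 3′ on the strand of the gene. Capitals mark the letters GGGCGG (the GC box bound by Sp1), or CCAAT (bound by NF-Y), or CCGGAA (the core of ETS factor sites), on either strand. The Fanci stretch is chr7:79392251-79392311 on the plus strand, and the others are on the minus strand at chr11:101551956-101552106 (Brca1), chr7:122132981-122133040 (Palb2) and chr11:86201216-86201443 (Brip1).
Fanci: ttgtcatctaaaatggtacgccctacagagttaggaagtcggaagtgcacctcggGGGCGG
Brca1: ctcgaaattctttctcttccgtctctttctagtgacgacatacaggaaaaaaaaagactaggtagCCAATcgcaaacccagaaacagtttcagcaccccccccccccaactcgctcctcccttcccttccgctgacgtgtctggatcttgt
Palb2: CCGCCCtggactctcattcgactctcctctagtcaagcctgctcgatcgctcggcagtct
Brip1: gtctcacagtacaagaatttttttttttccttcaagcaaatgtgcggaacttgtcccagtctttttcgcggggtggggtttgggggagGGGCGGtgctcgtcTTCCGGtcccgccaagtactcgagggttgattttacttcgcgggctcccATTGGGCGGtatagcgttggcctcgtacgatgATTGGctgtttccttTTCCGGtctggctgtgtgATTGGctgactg

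The Fanci, Brca1 and Palb2 stretches, 61, 151 and 60 bases long, fill the gap between each gene record and that of a neighbour that runs the other way (Rlbp1, Nbr1 and Dctn5), whereas Brip1 had no neighbour there. Over the whole 250 bases Brip1 held 8 matches, and in it 1 CCAAT match, on the opposite strand, shares letters with a GGGCGG match. The letters GGGCGG were found before 5 of the 9 start sites, against 32.7% of all 32851 promoters of that length in the table. CCGGAA was found before 5 of 9, against 12.0%, and CCAAT before 4 of 9, against 33.8%. Of the letters that E2F factors bind, TTCCCGC was found before Brca2 alone, against 3.82% of promoters, and TTGGCGC before 1 of the start sites of Rad51c, against 1.97%. The letters TTTGAA, the core of the CHR element of late cell cycle genes, were found before 0 of 9, against 16.0%. CG dinucleotides numbered 12 (Brca1) to 23 (Rad51c) in the 250 bases, with 3 before the listed start site of Slx4, against a median of 6 over all promoters. These matches describe the letters and do not show that a factor was bound. The shares were not adjusted for the count of CG, and GGGCGG and CCGGAA each hold a CG. Rad51c gives 2 of the 9 start sites, both with GGGCGG.

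All 9 genes had a gene-end peak in control, and 6 of them had one in H1C. Among all protein-coding genes 33.6% had one in H1C and 46.9% in control, and 71.0% of those with one in control also had one in H1C. Brca1, Palb2, Brip1, Rad51c, Slx4 and Ercc4 kept theirs, and Fancd2, Fanci and Brca2 had a gene-end peak in control only. At the 8 genes with an entry in the promoter table these peaks lay at the start side in both lists. The control peaks of these genes were of ordinary height, with a median pileup of 52 (20 to 98), against a median of 49 over the highest gene-end peak of all 10264 genes with one in control. Peaks lowered in every cell and peaks lost from some of the cells cannot be told apart in such bulk libraries, and an open gene end is not a measure of expression.

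**Figure D1:**
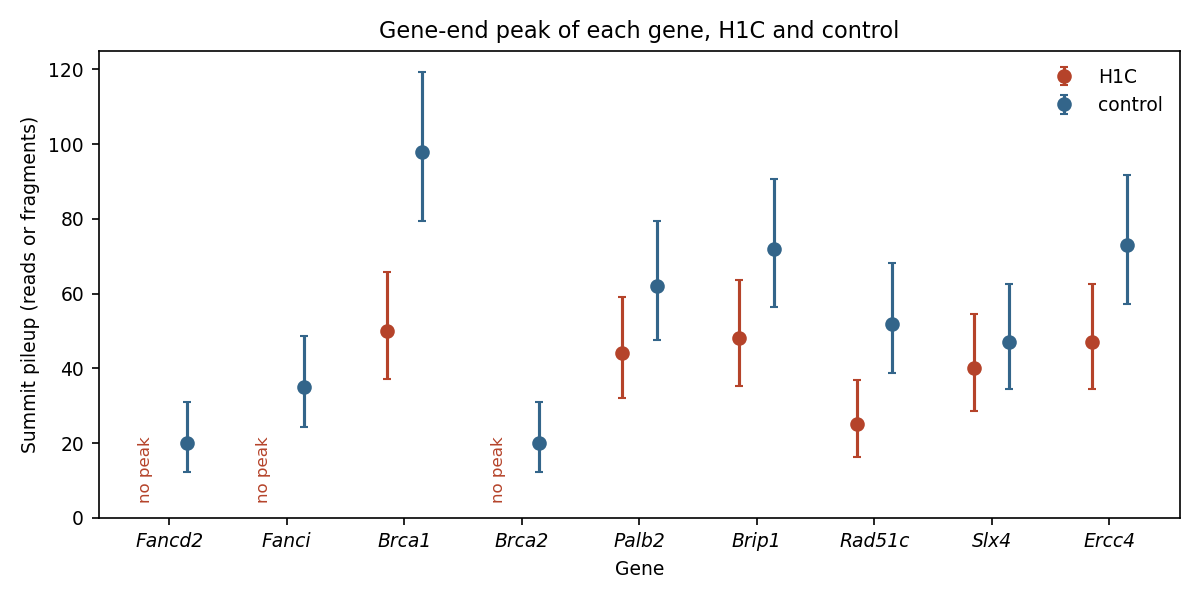
Summit pileup (reads or fragments) of the gene-end peak of each gene in the H1C and control libraries, 1 library each; bars are exact Poisson 95% intervals and cover counting error only. The H1C pileups of the 6 genes with a peak in both lists run from 25 to 50 and the control pileups from 47 to 98; Fancd2, Fanci and Brca2 have no H1C peak.

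The genes of the ID complex, the ubiquitinated pair at the centre of the pathway, had no gene-end peak in the H1C list. Fancd2 lies at chromosome 6, 113531640 to 113597020, and Fanci at chromosome 7, 79392312 to 79450266. For Fancd2 the control peak (113531367 to 113531750) had a pileup of 20, a fold of 4.01 over its local background and a −log10 q of 5.55. Its summit lay 37 bp from the start site of Emc3, a gene of the endoplasmic reticulum membrane complex whose record ends at 113531638, next to that of Fancd2. For Fanci the control peak (79391900 to 79392665) was higher and wider, with a pileup of 35, a fold of 5.61 and a width of 766 bp, and its summit lay 8 bp before the start site. The lowest pileup of any H1C peak was 14, so fewer reads than in control may still be present at either gene without a peak in the list. Of the 1685 control gene-end peaks with a pileup within 5 of that of Fancd2, 180 (10.7%) were overlapped by an H1C peak, and of the 1944 within 5 of that of Fanci, 865 (44.5%). A control peak of the height of Fancd2 was thus rarely found in H1C at any gene, and one of the height of Fanci in fewer cases than not.

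The genes of the BRCA1, PALB2 and BRCA2 chain divided, with Brca1 and Palb2 in both lists and Brca2 in control only. Brca1, whose product starts the processing of the break, lies at chromosome 11, 101488761 to 101551955. Its gene-end peak had a pileup of 50 in H1C (101551881 to 101552915) and 98 in control (101551852 to 101553073), with folds of 6.75 in H1C and 9.63 in control. The log2 ratio was -1.11 (95% interval -1.63 to -0.61), a drop beyond counting error. The summit lay 704 bp in H1C and 695 bp in control before the Brca1 start site, and 5 bp in H1C and 4 bp in control from the start site of Nbr1, an autophagy receptor gene that runs the other way. The height of this peak is therefore that at the Nbr1 start, although in both lists the peak also holds the Brca1 start site.

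Palb2, which bridges BRCA1 and BRCA2, lies at chromosome 7, 122107262 to 122132980. Its peak had a pileup of 44 in H1C (122132797 to 122133185) and 62 in control (122132619 to 122133222), and the log2 ratio was -0.64 (-1.23 to -0.06). The summit lay 41 bp in H1C and 45 bp in control before the Palb2 start site and 54 bp in H1C and 50 bp in control from that of Dctn5, a dynactin subunit gene. Reads at this peak cannot be assigned to one gene or the other. Brca2, which acts in recombination at the prepared break, lies at chromosome 5, 150522297 to 150570147. Its control peak (150522533 to 150522895) had a pileup of 20, a fold of 4.15 and a summit 13 bp after the start site. The same 10.7% of peaks of that height were found in H1C as given for Fancd2.

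Brip1 and Rad51c, which help the recombination step, kept their gene-end peaks at a lower pileup in H1C. Brip1, the helicase that binds BRCA1, lies at chromosome 11, 86058136 to 86201215. Its peak had a pileup of 48 in H1C (86201080 to 86201444) and 72 in control (86201051 to 86201713), with a log2 ratio of -0.73 (-1.29 to -0.18). The peak was 365 bp wide in H1C and 663 bp in control, and no other gene end lay within 1000 bp of it.

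Rad51c, a recombination gene, lies on the same chromosome at 87376645 to 87404954. Its peak had a pileup of 25 in H1C (87404294 to 87404690) and 52 in control (87404143 to 87404752), with folds of 4.47 in H1C and 9.64 in control. The log2 ratio was -1.20 (-1.95 to -0.48), the lowest of the 6 genes. The promoter table gives Rad51c start sites at 87404506 and 87404954. The peak held the first in both lists, with the summit 50 bp in H1C and 59 bp in control before it. It ended 264 bp in H1C and 202 bp in control short of the second, which faces Tex14, a gene of germ cell bridges.

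The genes of the nuclease step, Slx4 and Ercc4, both kept a gene-end peak. Slx4, the scaffold that holds the nucleases, lies at chromosome 16, 3979105 to 4003829. Its peak had a pileup of 40 in H1C (4003654 to 4004057) and 47 in control (4003475 to 4003974). The log2 ratio was -0.37 (-1.02 to 0.26), the only one of the 6 whose interval held 0. The peak covered the outer end of the gene record, and the single start site in the promoter table, 4001678, lay 1976 bp from the H1C peak and 1797 bp from the control peak. Ercc4, the nuclease subunit also named XPF, lies at chromosome 16, 13109366 to 13152009. Its peak had a pileup of 47 in H1C (13109619 to 13110110) and 73 in control (13109575 to 13110242), with a log2 ratio of -0.78 (-1.34 to -0.23). The summit lay 46 bp in H1C and 31 bp in control after the start site.

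Read together, the 6 gene-end peaks found in both lists were lower in H1C, as were most such peaks in the genome. Their log2 ratio ran from -1.20 to -0.37 with a median of -0.75, a ratio of 0.594, and the interval lay below 0 at 5 of 6. Over all 6385 control gene-end peaks with an H1C peak the median was -0.84 and the interval lay below 0 at 74.8%. With the local background at shared summits as the depth scale (a ratio of 0.887), every log2 ratio is higher by 0.32, and the interval lay below 0 at 2 of 6 genes (Brca1 and Rad51c) and at 38.0% of all such peaks. Against peaks within 5 of the same control pileup, the ratio of Slx4 was higher than that of 95.6% of 1279 peaks (median -0.84) and that of Palb2 higher than 85.4% of 1168 (median -0.93). The ratio of Rad51c was higher than that of 12.4% of 1357 peaks (median -0.89) and that of Brca1 higher than 17.0% of 312 (median -0.91). Brip1 and Ercc4 stood at 77.9% and 72.3%. The intervals of Slx4 and Rad51c, the highest and lowest of the 6 ratios, overlap, and the difference between these genes was not tested.

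**Figure D2:**
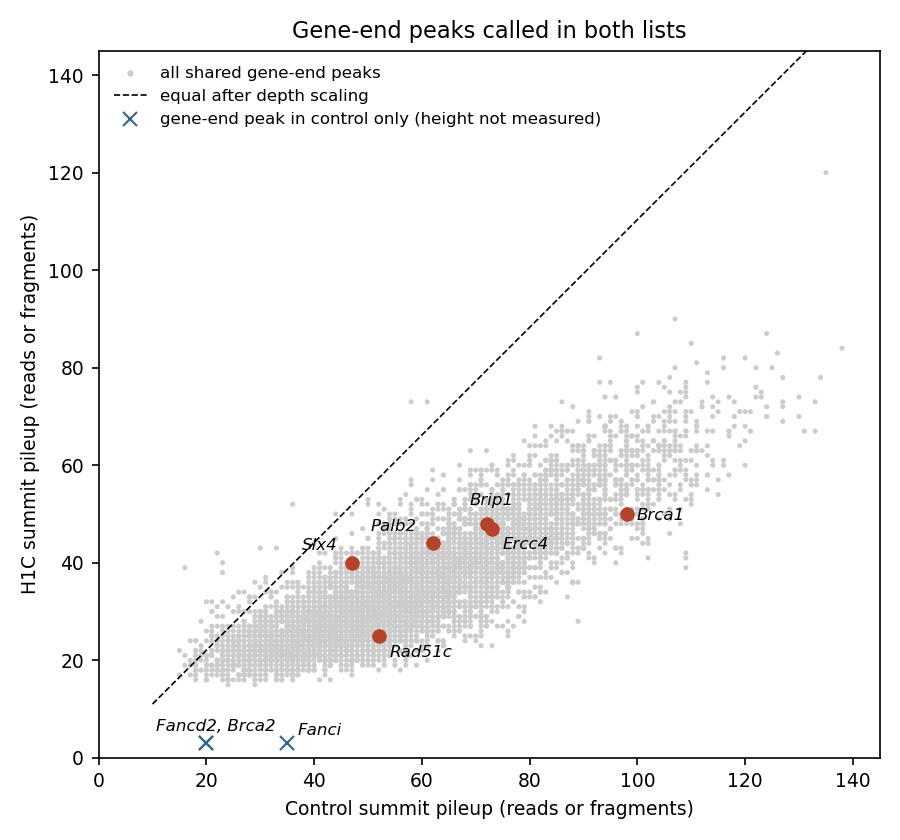
Summit pileup of each gene-end peak found in both lists, H1C (vertical axis) against control (horizontal axis), in reads or fragments; grey points are all 6385 shared control gene-end peaks, red points the 6 genes, and the dashed line marks equal height after scaling by 1.10. All 6 genes lie below the line, Slx4 (40 in H1C and 47 in control) nearest to it; crosses mark control pileups of genes with no H1C peak and have no height.

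Which genes kept a peak followed the order of control height. The 6 genes with an H1C peak had control pileups of 47 or more, and the 3 without had 35 or less. Of the 9 control gene-end peaks 66.7% (exact 95% interval 29.9 to 92.5) were overlapped by an H1C peak, against 62.9% of all 10147 control gene-end peaks. In the control pileup range of the kept genes, 47 to 98, the share over all gene-end peaks was 94.7%. It was 79.5% within 5 of the pileup of Slx4, 87.9% for Rad51c, 96.0% for Palb2, 98.9% for Brip1 and for Ercc4, and 100% of 312 for Brca1.

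**Figure D3:**
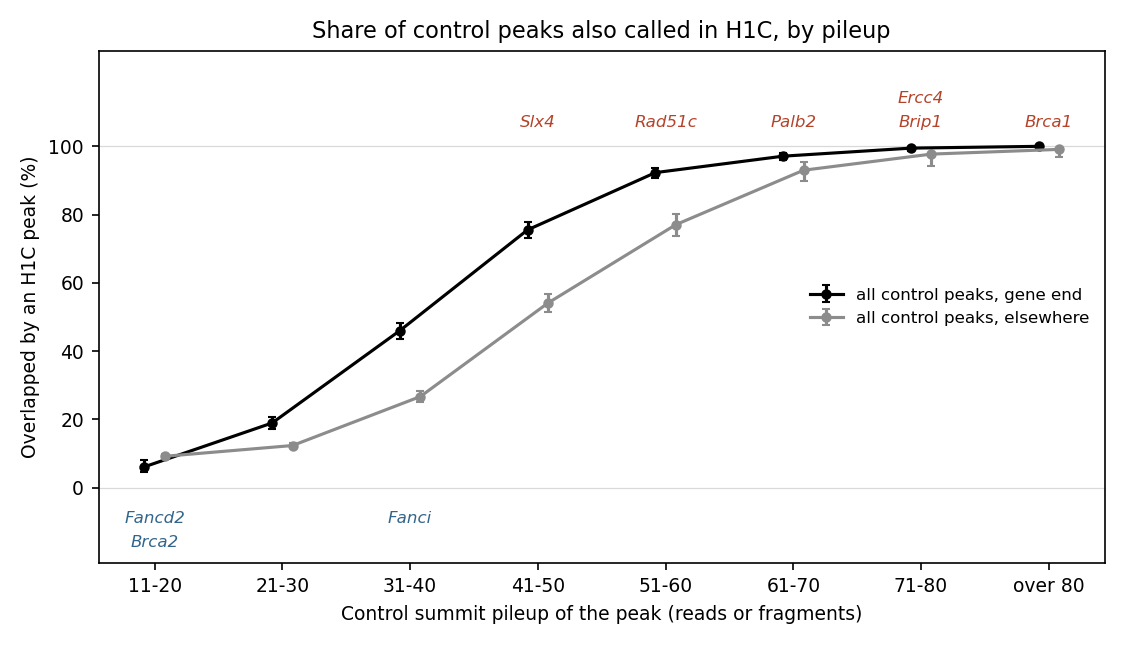
Share of control peaks overlapped by an H1C peak (percent, with exact 95% intervals) by control summit pileup, for all gene-end peaks (black) and all other peaks (grey), with the 9 genes placed in their pileup step: above the curves where the gene has an H1C gene-end peak, below where it has none. The share at gene ends is 6.13% in the lowest step, which holds Fancd2 and Brca2, 46.0% in the step of Fanci and 100% in that of Brca1.

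The kept peaks were narrower in H1C, with summits close to those in control. Width in H1C was 55.1% (Brip1) to 84.7% (Brca1) of that in control, with a median of 69.4%, against a median of 71.2% over all shared gene-end peaks. The summit moved by 4 bp at Palb2, 9 bp at Brca1 and at Rad51c, 15 bp at Ercc4, 23 bp at Brip1 and 73 bp at Slx4, against a median of 25 bp over all. The deposited fold, which is taken over the background around each peak, ran from 4.47 to 8.15 in H1C and from 6.80 to 10.6 in control. The −log10 q of these 6 peaks ran from 7.53 (Rad51c) to 25.3 (Brip1) in H1C and from 22.7 (Slx4) to 59.4 (Brca1) in control.

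Beyond the genes' own ends, the windows held 15 H1C and 36 control peaks, and most of these control peaks had no counterpart in H1C. With the gene-end peaks the windows held 21 H1C and 45 control peaks. In 8 of 9 windows there were fewer in H1C, the shorter list (13012 peaks against 31843 in control). The share of all gene windows with fewer in H1C was not computed, so this count says nothing particular to these genes. The median was 2 per window in H1C and 5 in control, against 1 in H1C and 3 in control over all protein-coding genes. Of the 21 H1C peaks 20 (95.2%, 76.2 to 99.9) overlapped a control peak, against 85.0% of the whole H1C list. Of the 45 control peaks 20 (44.4%, 29.6 to 60.0) overlapped an H1C peak, against 34.1% of the whole list. Of the 36 control peaks away from the genes' own ends, 14 (38.9%, 23.1 to 56.5) were kept. They comprised 14 at the end of another protein-coding gene, of which 7 were kept (50.0%, 23.0 to 77.0), and 22 away from any such end, of which 7 were kept (31.8%, 13.9 to 54.9). The whole-list shares were 62.9% at gene ends and 20.7% away from them, each inside the interval of its class.

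**Figure D4:**
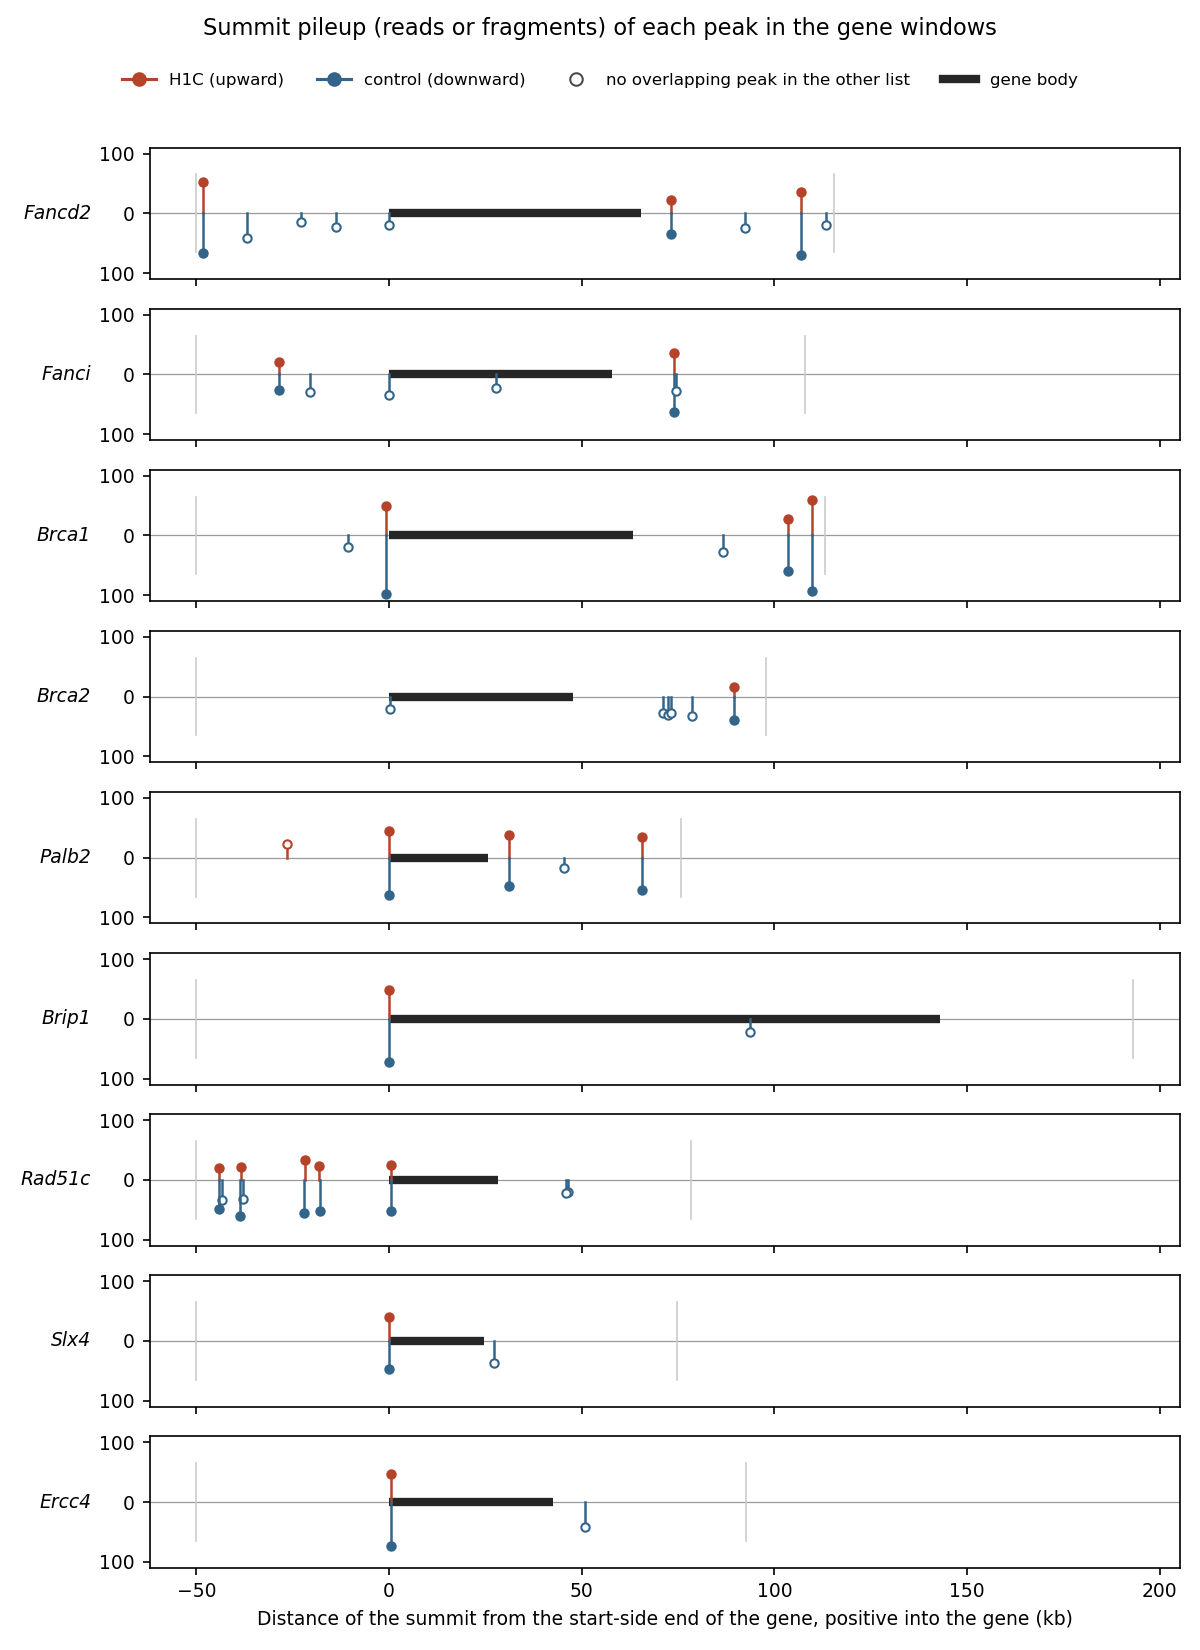
Summits of all peaks in the 9 gene windows by distance from the start side of each gene (kb, positive into the gene); for Fancd2, which has no promoter entry, 0 is the end with the gene-end peak. H1C pileups point up, control pileups down, open circles have no overlapping peak in the other list, black bars are gene bodies and grey ticks the window limits. More than 1000 bp from the gene ends, the gene bodies hold 1 peak in Fanci and 1 in Brip1. Both are in control only, with a pileup of 22, a height at which few control peaks away from gene ends were found in H1C.

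Inside the gene bodies, more than 1000 bp from either end, the H1C list had no peak and the control list had 2. One lay in Fanci (79419994 to 79420237, pileup 22, fold 4.46) and the other in Brip1 (86107318 to 86107596, pileup 22, fold 4.61). The remaining 7 genes had none in either list. Of all control peaks away from gene ends with a pileup above 20 and up to 30, 12.4% were overlapped by an H1C peak. Absence of both from the H1C list was thus usual for peaks of that height. The single H1C peak with no control counterpart lay 26.3 kb from the start side of Palb2 (122159276 to 122159502), with a pileup of 23 and a fold of 4.07. It overlaps an end of Plk1, the mitotic kinase gene.

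In each window of the ID complex genes the 3 outlying control peaks with the highest folds were in both lists, save 1 near Fanci. Another in Prrt3, near Fancd2, with a fold of 5.75 and a control pileup of 41, was in control only. Of all outlying control peaks, 3 of 8 near Fancd2 and 2 of 4 near Fanci were kept. The share over the whole control list was 34.1%. The control peak with the highest fold near Fancd2 lay at Irak2, an interleukin receptor kinase gene, 41.2 kb away, with pileups of 35 in H1C and 69 in control (log2 ratio -1.12, -1.75 to -0.51). The peak at the shared end of Creld1 and Il17rc had pileups of 53 in H1C and 66 in control (log2 ratio -0.46, -1.01 to 0.09). That at Brk1 had 22 in H1C and 34 in control (log2 ratio -0.77, -1.61 to 0.05), so neither differed beyond counting error. Near Fanci a peak in Polg, the mitochondrial DNA polymerase gene, had pileups of 36 in H1C and 63 in control (log2 ratio -0.95, -1.58 to -0.34). A peak 1906 bp from Abhd2 had 21 in H1C and 26 in control (log2 ratio -0.45, -1.35 to 0.44), and a peak 3039 bp from Rlbp1, with a control pileup of 29, had no H1C counterpart.

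In the windows of Brca1, Palb2 and Brca2 the high outlying peaks were likewise in both lists and several lower ones in control only. Near Brca1 the peak at the ribosomal protein gene Rpl27 had pileups of 60 in H1C and 93 in control (log2 ratio -0.77, -1.27 to -0.29), and that at the interferon-induced gene Ifi35 had 27 in H1C and 60 in control (log2 ratio -1.29, -2.01 to -0.62). A peak in Nbr1 with a control pileup of 20 was in control only. Near Palb2 the peak at the mitochondrial gene Ndufab1 had pileups of 38 in H1C and 48 in control (log2 ratio -0.48, -1.13 to 0.17) and that at Ears2 and Ubfd1 had 34 in H1C and 54 in control (log2 ratio -0.81, -1.47 to -0.16), while another 534 bp from an end of Ndufab1, with a control pileup of 17, was in control only. Near Brca2 1 of 5 outlying control peaks was kept. At control pileups of 40 or less, as these had, the whole-list share was 13.2% away from gene ends and 27.3% at them. The kept peak lay in N4bp2l2, 41.6 kb away, with pileups of 16 in H1C and 39 in control (log2 ratio -1.43, -2.37 to -0.55). The peaks with control pileups of 32 at N4bp2l2 and 31 in N4bp2l1 were in control only.

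The Rad51c window held the densest group of kept peaks, all in the body of Tex14, 17.6 to 43.7 kb beyond the start side of Rad51c. In H1C the 4 peaks had pileups of 24, 34, 21 and 20, and in control 52, 56, 61 and 49, in order of distance. Their log2 ratios were -1.26 (-2.02 to -0.53), -0.86 (-1.52 to -0.22), -1.68 (-2.47 to -0.94) and -1.43 (-2.26 to -0.66). Among shared peaks away from gene ends within 5 of the same control pileup, the share with a lower ratio was 15.3% for the peak 17.6 kb away, 62.4% for that at 21.7 kb, 0.467% of 428 for that at 38.3 kb and 4.20% of 762 for that at 43.7 kb. The other control peaks of this group, with pileups of 32 and 34, had no H1C counterpart. The outlying control peaks nearest to Slx4 (pileup 37, in Nlrc3) and to Ercc4 (pileup 42, 8.15 kb away) were in control only as well.

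**Figure D5:**
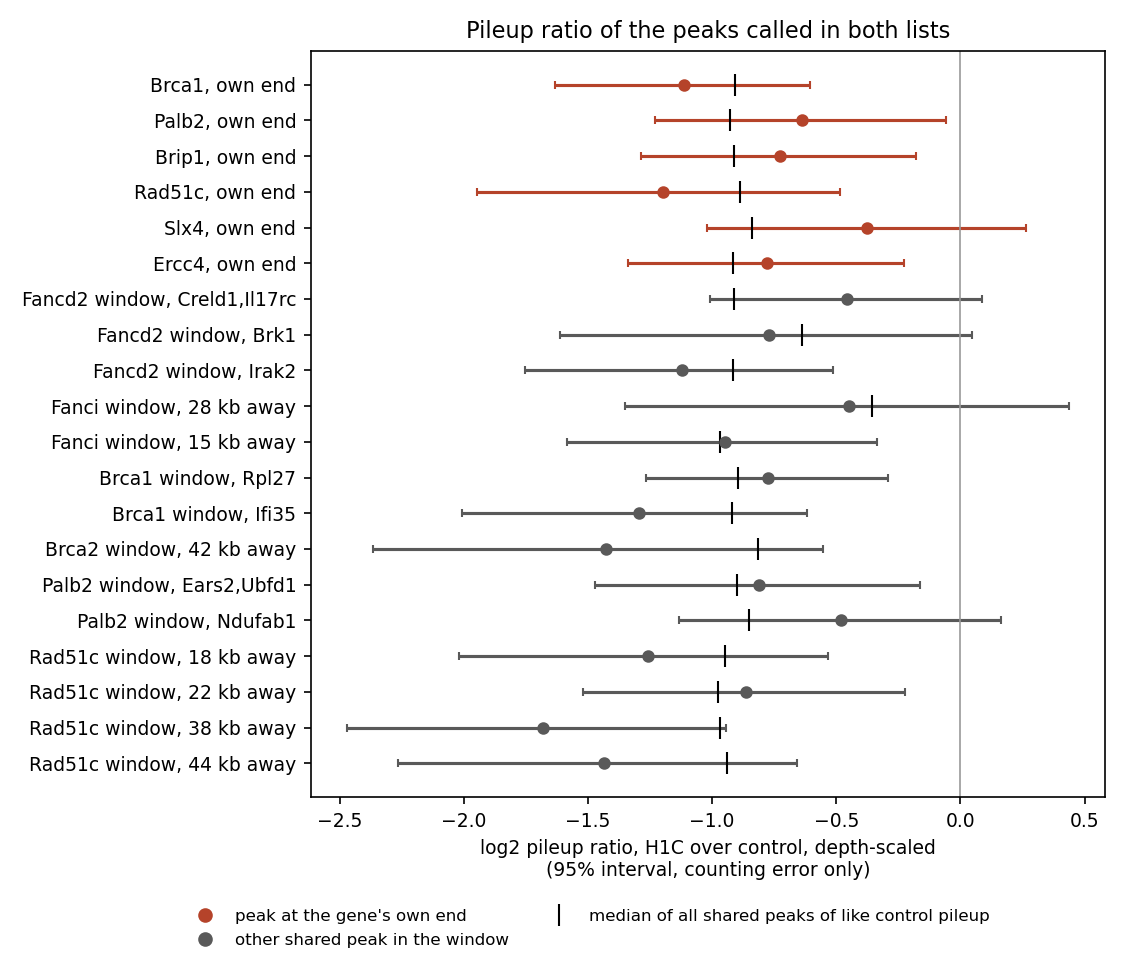
Depth-scaled log2 ratio of summit pileup, H1C over control, with exact conditional 95% intervals (counting error only), for the 6 gene-end peaks of the genes (red) and the 14 other shared peaks in their windows (grey); black ticks are medians over all shared peaks of the same class within 5 of the control pileup. All 20 ratios lie below 0, from -1.68 (Rad51c window, 38 kb away) to -0.37 (Slx4). So do 98.9% of all shared control gene-end peaks.

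All 14 shared peaks away from the genes' own ends had a ratio below 0, and the interval lay below 0 at 10 of 14. A ratio below 0 was usual in these lists. It was found at 98.9% of all shared control gene-end peaks, and the upper quartile over all shared peaks away from gene ends was -0.21. Of the 14, 7 lay at the end of another gene, with a median log2 ratio of -0.77 and the interval below 0 at 4 of 7, against a median of -0.84 and 74.8% over all shared gene-end peaks. The other 7, of which 4 lie in Tex14, were away from any gene end, with a median of -1.26 and the interval below 0 at 6 of 7. Over all shared peaks away from gene ends the median was -0.64 and the interval lay below 0 at 43.9%. The medians of such peaks within 5 of the same control pileup ran from -0.97 to -0.36 for these 7. With the local background as depth scale the interval lay below 0 at 2 of the 7 at gene ends, against 38.0% of all such peaks, and at 5 of the 7 away from them, against 21.1%. The shares of intervals below 0 were not matched for control pileup, on which the width of an interval depends.

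Other genes of crosslink repair and recombination were described from a list of 56 names, of which 55 matched the annotation. Of these, 50 had a control gene-end peak, against 46.9% of all protein-coding genes. Of the 50, 42 also had one in H1C (84.0%, 70.9 to 92.8), against 71.0% of all genes with one in control. These shares were not matched for control height. In control only were 8 genes, with pileups of 22 to 57: Fancf (57) and Fancg (31) of the core complex, the recombination genes Rad54l (40), Xrcc2 (32) and Helq (29), Abraxas1 (28), a partner of BRCA1, Exo1 (24), an exonuclease, and Rad52 (22). None was in H1C only, and 5 had no gene-end peak in either list. The median control pileup was 30 at the 8 control-only genes and 61 at the 42 kept genes, the same order by height as among the 9 genes. Over all genes with a control gene-end peak it was 49. All 42 kept genes had a log2 ratio below 0, as had 98.9% of all 6385 shared control gene-end peaks. The median of the 42 was -0.88, with a lowest ratio of -1.21 and a highest of -0.42. The interval lay below 0 at 37 of the 42, against 74.8% of all such peaks. The genes nearest in pileup to the medians of the 6 kept genes (45.5 in H1C and 67 in control, by distance of log2 pileups) were Fancm, with 46 in H1C and 72 in control, Bap1, with 49 in H1C and 70 in control, and Swsap1, with 45 in H1C and 75 in control.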

How the data were processed

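The submitters' processing notes name mm10 as the build and list MACS2, featureCounts, Picard, Bowtie2 2.2.9 and Trim Galore 0.4.4. Settings, handling of duplicates and any shift for the Tn5 cut are not given in the sources used here. The authors deposited 1 peak list per library. In each, the deposited fold is a ratio of summit pileup to local background, each plus 1, the deposited −log10 p and −log10 q are those of the peak caller, and the deposited score is 10 times −log10 q, rounded down, in nearly all peaks.

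Pileups were solved from fold and Poisson −log10 p and were whole numbers (relative tolerance 0.0001) for 13156 of 13156 H1C and 32005 of 32005 control peaks. The solver was tested on simulated data. Peaks on other sequences, 144 in H1C and 162 in control, were left out. Peaks overlapped where at least 1 bp was shared. Shares have exact Clopper-Pearson and pileup ratios exact conditional binomial 95% intervals. All intervals cover counting error only, and amplified fragments (13 to 16 PCR cycles, per the labels' protocols) are not independent molecules. Read depth is unknown, since the lists hold peaks only, and the lowest −log10 q was 1.34 in H1C and 1.31 in control. A gene-end peak at a neighbour's end counts for both genes. The annotation table has gene records without exons or strand. Strand came from the promoter table.

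The members and lists were chosen with earlier results of these data known. Named were all 9 genes, neighbours at their gene-end peaks, all peaks in gene bodies, H1C-only peaks, up to 3 outlying control peaks per window by fold, and, from the pathway list, up to 6 genes in 1 list only by fold and the 3 nearest in pileup. Exo1 and Rad52 were named to complete the 8 control-only genes, after their values were seen. So were the Tex14 peaks and the Prrt3 peak beyond the 3 by fold. The planned 250 bases before start sites were shortened to the part outside gene records. The pathway list holds Snx8, a sorting nexin gene, by mistake. Alternatives covered threshold, merging, overlap rule, flank, gene-end window and depth scale. The software was scipy 1.17.1, pandas 2.3.3, numpy 2.4.6 and matplotlib 3.10.9 under Python 3.11.15.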

Additional observations from a re-analysis of the deposited data

How the results depend on the processing

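No paired analysis was possible because the groups are single libraries. Of 54 alternatives for 16 results, 48 left the value inside its own interval or quartiles, or a count within 1.5 times, and 6 moved it, and no result changed sign. A flank of 10 kb left 8 H1C and 15 control peaks, with 100% of the H1C peaks overlapping a control peak, and a flank of 100 kb gave 33 H1C and 77 control peaks, since the windows are smaller or larger by construction. With the local background as depth scale the median log2 ratio of the 6 kept genes was -0.44, since that scale shifts each ratio by 0.32, and that of Slx4 was -0.06. The same 6 of 9 gene-end peaks were kept under the stricter threshold (−log10 q of at least 5), the 50% reciprocal overlap, the summit rule and the 500 bp window. The share of other control peaks kept in the windows, 38.9% (14 of 36), was 25% (8 of 32) under the stricter threshold and 27.8% (10 of 36) under the reciprocal overlap. Of the 50 pathway genes with a control gene-end peak, 38 (76.0%) also had one in H1C under the stricter threshold. Leaving out Snx8, an alternative chosen after seeing the data, left 41 of 49 pathway genes kept. Without read totals, a control-only peak cannot be told from an H1C peak just under the threshold of that list.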
